A study of Mus musculus with 12 samples.

Results

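Neurotrophins are secreted proteins that support the survival, growth and synaptic change of neurons, and they are made as precursors that proteases cut to the mature form. Mature brain-derived neurotrophic factor (BDNF) acts through the receptor tyrosine kinase TrkB, while uncut precursors can bind the neurotrophin receptor encoded by Ngfr together with sortilin. Active neurons also release other factors from dense core vesicles or at synapses, among them the granins VGF and secretogranin II, neuritin and the neuronal pentraxin NPTX2.

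The 10 genes described here were the ligands Bdnf and Ntf3, the receptors Ntrk2, Ntrk3, Ngfr and Sort1, and the secreted or surface-bound factors Nrn1, Nptx2, Vgf and Scg2. They were taken by symbol from the 43280 gene rows of the count table, and all 10 passed the filter on low counts with which 13104 genes were tested. The tissue was the hypothalamus of male C57/Bl6 mouse pups on postnatal day 6. The 6 control pups stayed with the dam, and the 6 pups of the modified maternal separation (MMS) group were taken away for a short period on each of several days, turned repeatedly on to their backs while apart, and killed directly after the last session. Male littermates were divided between the groups, the labels do not say which libraries share a litter, and no pup was treated with a drug or carried a mutation.

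Levels are given as CPM, counts per 1000000 of a library total that was scaled by the TMM method (a trimmed mean of log ratios between libraries). The libraries were made with a 3' mRNA kit, where a molecule gives about the same number of reads whatever its length, so CPM was not divided by length. Totals ran from 3765759 to 6560620 counts in controls and from 3218777 to 5344080 in MMS. MMS 2 and MMS 4 stood apart on the first principal component (57.8 and 46.3, against -14.4 to -3.04 in the other libraries). Fold changes, ratios within a library and marker sums were therefore also computed without both. The markers of lateral hypothalamus were present in every library (Hcrt, the orexin precursor, at 25.1 to 184 CPM), and the summed level of 6 pituitary markers ran from 0 to 41.2 CPM. Markers of the ventromedial and arcuate hypothalamus summed to 90.3 CPM in MMS 2 and 99.1 CPM in MMS 4, against 138 to 380 CPM in controls. Those of lateral hypothalamus went the other way, at 856 CPM in MMS 2 and 1159 CPM in MMS 4, against 378 to 755 CPM in controls. Those of thalamus summed to 908 to 1665 CPM in controls and 773 to 1701 CPM in MMS. Within this list Tcf7l2 varied more than the sum, from 68.8 to 492 CPM in controls and from 69.3 to 418 CPM in MMS. The part of dissection in these sums was not tested.

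Of the 10 genes, 0 passed an adjusted p of 0.05 in edgeR, as did 0% of all genes tested (smallest adjusted p 0.103). At an unadjusted p under 0.05 there was 1, Vgf, where the share over all genes was 9.08% (1190 genes), so the count was near the background. DESeq2 placed 7 genes of the whole table past the adjusted threshold and 0 of these 10. Log2 fold changes of MMS against control were above 0 for 5 members and below 0 for 5, and their median was 0.0048, against 0.0009 over all genes. The median absolute value was 0.18, against 0.15 over all genes. The groups overlapped in all 10 genes, where 0.389% of the genes tested had none.

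**Figure D1:**
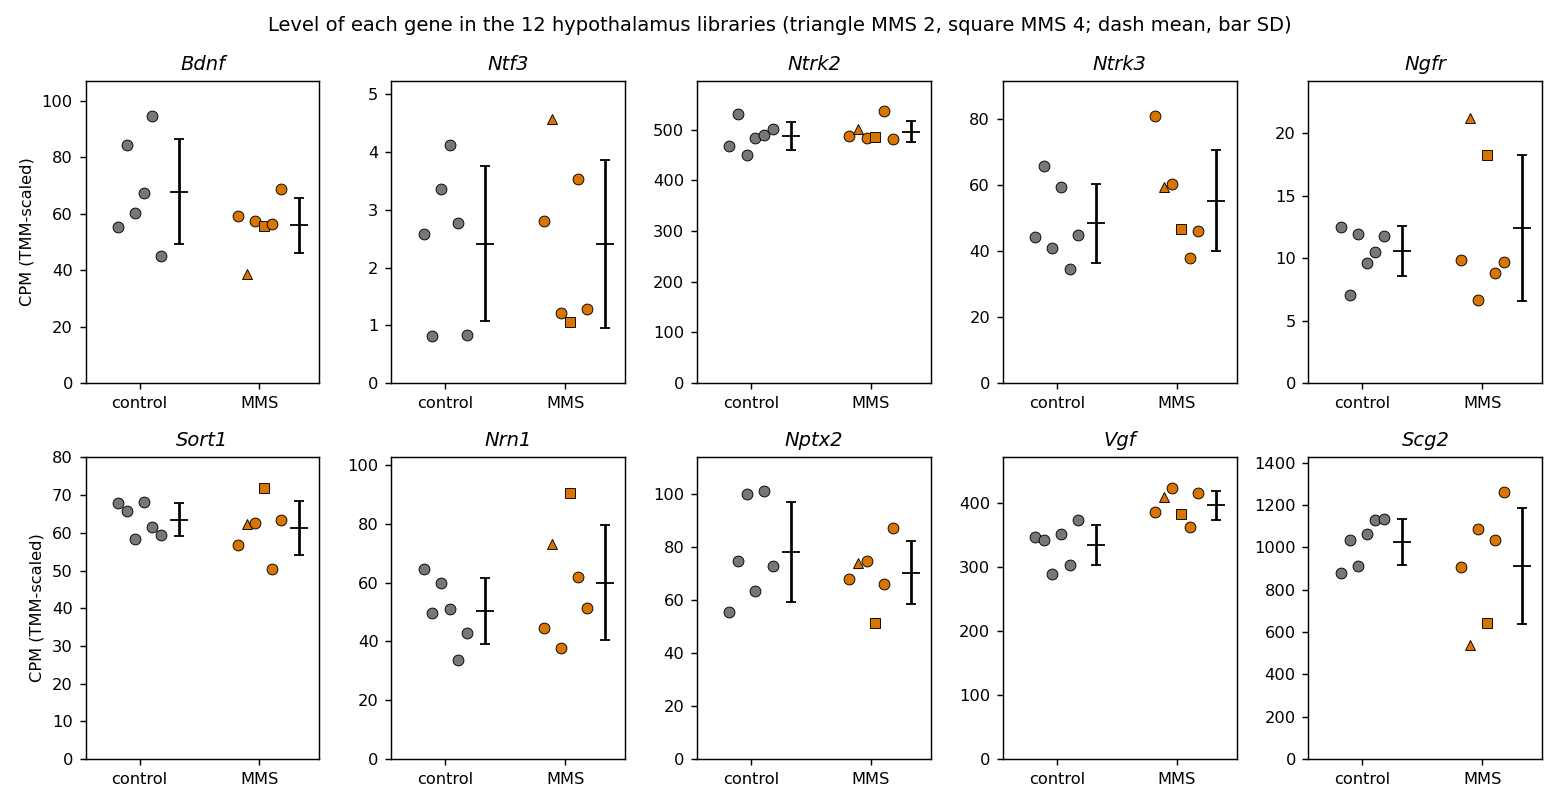
Level of each of the 10 genes in every library (vertical axes, CPM after TMM scaling, starting at 0) for 6 control and 6 MMS pups, with MMS 2 as a triangle, MMS 4 as a square, and the group mean and SD beside the points. The Vgf values of MMS pups sit between 362 and 422 CPM, while Scg2, Ngfr and Nrn1 are drawn apart within the MMS group by the triangle and the square.

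The order of the mean levels was Scg2 (969.5 CPM over 12 libraries), Ntrk2 (491 CPM), Vgf (365 CPM), Nptx2 (74.1 CPM), Sort1 (62.4 CPM), Bdnf (61.8 CPM), Nrn1 (55.1 CPM), Ntrk3 (51.9 CPM), Ngfr (11.5 CPM) and Ntf3 (2.41 CPM). From Nptx2 to Ntrk3, the ranges of neighbouring genes in this order overlapped in the controls. The control ranges of Scg2 (881 to 1135 CPM), Ntrk2 (450 to 530 CPM) and Vgf (289 to 373 CPM) did not overlap with each other. The steadiest genes among control pups were Ntrk2 (coefficient of variation 5.69%), Sort1 (6.79%) and Vgf (9.55%). The widest were Ntf3 (55.5%, where counting error alone gave 37.1%) and Bdnf (27.4%, where counting error gave 5.72%).

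The upstream sequences of Scg2 and Bdnf are shown because neuronal activity is known to act on both genes through the cAMP response element. They were picked with their values known, both being lowest in MMS 2. Whether the element bears on the levels in these libraries was not tested. In the RefSeq promoter table (GRCm38.p6), 5 of the 10 genes had an entry, with 12 windows of 250 bases before a start site. Ntrk3, Sort1, Nrn1, Vgf and Nptx2 had no entry. The full element TGACGTCA, which reads the same on both strands, was found in the Scg2 window and in 1.55% of all 32851 windows. At Scg2 it lay 61 to 68 bases before the RefSeq start. The gene coordinates given below for Scg2 come from GENCODE and begin further upstream, so by them the element is inside the gene. The core TGACG, searched on both strands and contained in the full element, occurred in 17.8% of windows. Upstream of Bdnf the core was found in 1 of 7 windows, 31 to 35 bases before the start and on the opposite strand (CGTCA as printed). The AP-1 element TGANTCA, bound by Fos and Jun proteins, was found in another Bdnf window and in 6.75% of all windows. Each sequence runs 5′ to 3′ on the strand of the gene, with the matches to the full element or its core in capitals. The first lies at chr1:79440027-79440276 (minus strand) and the second at chr2:109692186-109692435 (plus strand).
Scg2: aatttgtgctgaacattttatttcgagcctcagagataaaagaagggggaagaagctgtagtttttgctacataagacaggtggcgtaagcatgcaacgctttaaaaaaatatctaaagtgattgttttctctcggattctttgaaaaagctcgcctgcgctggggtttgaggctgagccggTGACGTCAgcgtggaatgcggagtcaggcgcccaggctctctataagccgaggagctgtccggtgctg
Bdnf: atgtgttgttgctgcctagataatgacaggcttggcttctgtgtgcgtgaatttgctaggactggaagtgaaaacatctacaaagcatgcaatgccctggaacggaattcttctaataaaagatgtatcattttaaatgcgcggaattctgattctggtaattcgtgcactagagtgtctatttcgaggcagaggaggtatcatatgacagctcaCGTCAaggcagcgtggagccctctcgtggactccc

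Bdnf (chr2:109674700-109727007, plus strand), which encodes the main TrkB ligand, ranged in controls from 44.9 to 94.4 CPM with a median of 63.8 CPM. In MMS pups it ranged from 38.7 to 68.6 CPM with a median of 56.9 CPM. Only 1 of 6 MMS libraries lay above the control mean, and MMS 2, at 38.7 CPM, was the only one below all controls. Control pups averaged 67.7 ± 18.5 CPM and MMS pups 55.9 ± 9.69 CPM (SD, n = 6 each). The log2 fold change was -0.28 (SE 0.16, 95% interval -0.62 to 0.06), with an adjusted p of 0.592 in edgeR and an exact permutation p of 0.236 (two-sided). The 2 highest values were those of control 2 (84.2 CPM) and control 5 (94.4 CPM). Leaving out control 5 gave -0.15, and leaving out control 6 gave -0.36, the latter with an unadjusted p under 0.05 but an adjusted p of 0.643 in edgeR. Without MMS 2 and MMS 4 it was -0.17 (SE 0.17). The 11 annotated coding transcripts of Bdnf had no ends more than 1 kb apart, so the counts do not tell its start sites apart. In bulk tissue, fewer cells of a type and less RNA per cell cannot be told apart.

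Ntf3 (chr6:126101412-126166910, minus strand), which encodes the preferred ligand of TrkC, was near the limit of detection, with 3 to 20 counts per library and 136 in all. It ranged from 0.815 to 4.13 CPM in controls and from 1.06 to 4.57 CPM in MMS. The group means were the same within error (2.42 ± 1.34 and 2.41 ± 1.45 CPM, SD, n = 6 per group). At this depth the 95% interval of the log2 fold change was -0.93 to 0.89, so the difference was known only within that wide range. Ntf5, which encodes a further TrkB ligand, had 4 counts over all 12 libraries and did not pass the count filter.

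Ntrk2 (chr13:58806569-59133970, plus strand), which encodes TrkB, was the least variable of the genes and the receptor with the most counts. Its values ran from 450 to 530 CPM in controls (median 486 CPM) and from 481 to 537 CPM in MMS (median 486 CPM). The MMS values lay inside the control range except for MMS 5 at 537 CPM. Between the groups the log2 fold change was 0.03 (SE 0.08, 95% interval -0.15 to 0.20; adjusted p = 0.926 in edgeR). Expressed as a fold, the 95% interval was 0.903 to 1.15. The 7 annotated coding transcripts of Ntrk2 had 6 ends more than 1 kb apart, and the table holds 1 value for the gene. The full-length kinase and the truncated receptor, which is common in astrocytes, were therefore not separated. The summed level of 9 astrocyte markers ran from 1933 to 2359 CPM in controls and from 2302 to 2661 CPM in MMS. An exact permutation test of this sum gave p = 0.0216 (two-sided), or 0.303 adjusted over 14 marker lists. The top of the MMS range came from MMS 2 (2627 CPM) and MMS 4 (2661 CPM). With both left out, the astrocyte sum in MMS reached at most 2392 CPM (exact permutation p = 0.167, adjusted 0.778). The part of this sum in the Ntrk2 value was not tested.

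Ntrk3 (chr7:78175959-78738012, minus strand), which encodes TrkC, had a wider spread. It ranged from 34.7 to 66.0 CPM in controls (median 44.7 CPM) and from 38.0 to 81.0 CPM in MMS (median 53.1 CPM). MMS 1, at 81.0 CPM, was the only library above all controls. For MMS against control the log2 fold change was 0.20 (SE 0.18, 95% interval -0.18 to 0.57; adjusted p = 0.725 in edgeR), and it was 0.07 without MMS 1. Gm9885, an antisense gene inside Ntrk3, had 432 counts in all, at 8.83 ± 1.57 CPM in controls and 6.27 ± 2.28 CPM in MMS (SD, n = 6 each; adjusted p = 0.559 in edgeR). Whether the counting used strand is not stated, so its reads and those of Ntrk3 may not be separated. The 6 annotated coding transcripts of Ntrk3 had 5 ends more than 1 kb apart. Its forms were therefore not separated either, in its own level or in the ratio to Ntrk2. The log2 ratio of Ntrk2 to Ntrk3 within a library was 3.36 ± 0.31 in controls and 3.21 ± 0.42 in MMS (SD, n = 6 each; two-sided exact permutation p = 0.400, adjusted over 4 ratios 0.519). The difference of -0.16 was -0.03 without MMS 1 and -0.06 without control 5.

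Ngfr (chr11:95568818-95587735, minus strand), whose product binds all neurotrophins with low affinity, split the MMS group. The controls ran from 7.06 to 12.5 CPM (median 11.1 CPM). Among MMS pups, MMS 2 (21.2 CPM) and MMS 4 (18.3 CPM) were above all controls, and the other 4 lay between 6.66 and 9.83 CPM, below the control median, with MMS 3 below all controls. Over all libraries the log2 fold change was 0.24 (SE 0.25; adjusted p = 0.765 in edgeR). Its sign turned without MMS 2 and MMS 4, to -0.27 (SE 0.23; adjusted p = 0.964 in edgeR), and neither value was past the threshold.

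Sort1 (chr3:108284082-108361511, plus strand), which encodes sortilin, a sorting receptor for BDNF and a partner of the Ngfr product, showed no such split. It ranged from 58.4 to 68.1 CPM in controls (median 63.7 CPM) and from 50.4 to 71.8 CPM in MMS (median 62.5 CPM). MMS 5 (50.4 CPM) and MMS 1 (56.9 CPM) lay below all controls and MMS 4 (71.8 CPM) above them. Its log2 fold change was -0.05 (SE 0.11, 95% interval -0.27 to 0.17; adjusted p = 0.889 in edgeR). The log2 ratio of Ngfr to Sort1 was -1.55 in MMS 2 and -1.98 in MMS 4, both above the highest control at -2.29. Over the groups it was -2.61 ± 0.35 in controls and -2.42 ± 0.59 in MMS (SD, n = 6 each; two-sided exact permutation p = 0.519, adjusted over 4 ratios 0.519).

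Nrn1 (chr13:36725361-36735131, minus strand), which encodes neuritin, a surface protein that promotes the growth of neurites, followed the same libraries as Ngfr. It ranged from 33.6 to 64.8 CPM in controls (median 50.3 CPM) and from 37.9 to 90.6 CPM in MMS (median 56.5 CPM). MMS 4 (90.6 CPM) and MMS 2 (73.1 CPM) were the only libraries above all controls. The log2 fold change was 0.26 (SE 0.20; adjusted p = 0.666 in edgeR) over all libraries and -0.03 (SE 0.16; adjusted p = 0.995 in edgeR) without those 2. The 3' end of Nrn1 overlaps the end of Fars2 on the opposite strand over 920 bases. Fars2 was at 16.2 ± 4.42 CPM in control pups and 15.6 ± 3.36 CPM in MMS pups (SD, n = 6 each), with 20.7 CPM in MMS 2 and 14.4 CPM in MMS 4, and it is not known whether strand kept the reads of the 2 genes apart.

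Nptx2 (chr5:144545902-144557478, plus strand), which encodes a secreted pentraxin that gathers AMPA receptors at excitatory synapses, ranged from 55.3 to 101 CPM in controls (median 73.8 CPM). In MMS it ranged from 51.3 to 87.3 CPM (median 70.9 CPM). The 2 highest values were those of control 5 and control 3, at 101 and 99.98 CPM, and the lowest was that of MMS 4. The log2 fold change was -0.16 (SE 0.15, 95% interval -0.47 to 0.15; adjusted p = 0.736 in edgeR), and it was -0.08 without MMS 2 and MMS 4. Leaving out 1 library gave -0.06 without control 5 and -0.07 without control 3 or MMS 4. Set against Nptx1, the paralog in the same synaptic complex, the log2 ratio of Nptx2 to Nptx1 was 2.73 ± 0.48 in controls and 2.36 ± 0.41 in MMS (SD, n = 6 each; two-sided exact permutation p = 0.188, adjusted over 4 ratios 0.377). The difference of -0.37 was -0.17 without MMS 2 and MMS 4, and it was -0.22 without control 3 and -0.24 without MMS 4.

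Vgf (chr5:137026392-137033351, plus strand), which encodes a neurotrophin-inducible precursor of several secreted peptides, had the smallest p of the 10 genes. The controls were 289, 302, 342, 346, 352 and 373 CPM. The MMS pups were 362, 383, 385, 408, 414 and 422 CPM. All 6 MMS libraries lay above the control mean and 5 of 6 above every control, the exception being MMS 5 at 362 CPM. Control pups averaged 334 ± 31.9 CPM and MMS pups 396 ± 22.9 CPM (SD, n = 6 each). The log2 fold change was 0.24 (SE 0.09, 95% interval 0.05 to 0.44), a fold of 1.18, with an adjusted p of 0.543 in edgeR. By rank of p it was 332 of the 13104 genes, and 4.68% of genes had an unadjusted p under 0.05 with a higher value in MMS. The unadjusted p in edgeR was 0.0145, and the exact permutation test of the log2 CPM gave p = 0.0043 (two-sided), where the smallest value that 6 against 6 libraries allow is 0.00216. The estimate moved little: it was 0.25 (SE 0.09) without MMS 2 and MMS 4, and it ran from 0.21 to 0.29 on leaving out 1 library. The unadjusted p was between 0.0038 and 0.0441 under all 21 alternatives, and the adjusted p was between 0.262 and 0.961.

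**Figure D2:**
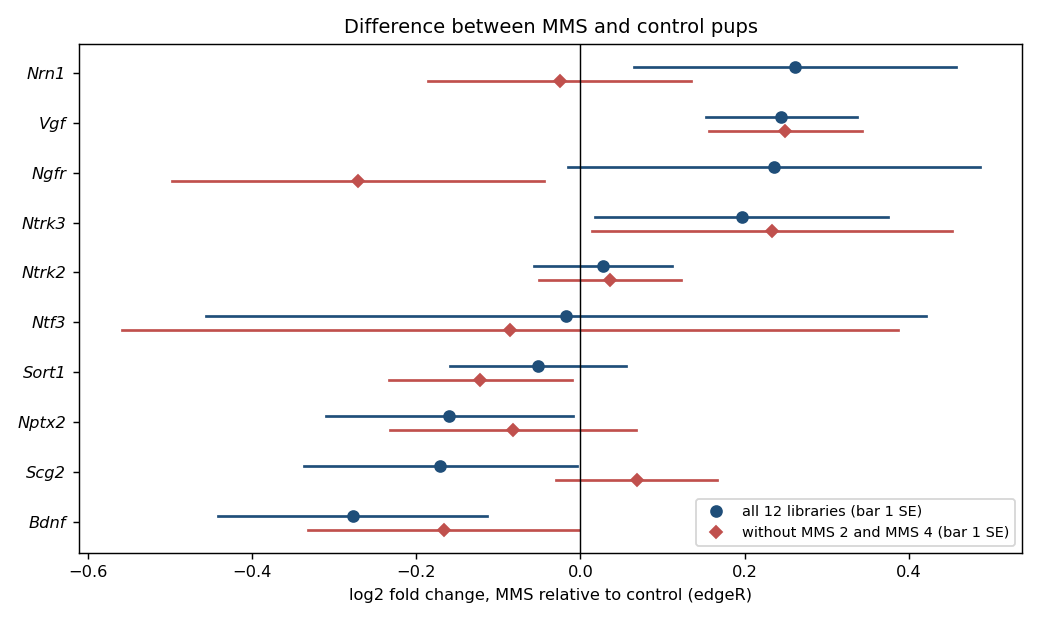
Log2 fold change of each gene between MMS and control pups (horizontal axis, edgeR) with bars of 1 SE, over all 12 libraries (circles) and without MMS 2 and MMS 4 (diamonds). Vgf stays at 0.24 and 0.25, while Ngfr, Nrn1 and Scg2 change sign (0.24 to -0.27, 0.26 to -0.03 and -0.17 to 0.07).

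Scg2 (chr1:79434669-79440120, minus strand), which encodes secretogranin II, the precursor of secretoneurin and a structural protein of dense core vesicles, was the most abundant of the 10. It ranged from 881 to 1135 CPM in controls (median 1050.0 CPM) and from 539 to 1263 CPM in MMS (median 972 CPM). MMS 2 (539 CPM) and MMS 4 (641 CPM) were far below every control, and MMS 6 (1263 CPM) was above them. Its log2 fold change was -0.17 (SE 0.17; adjusted p = 0.746 in edgeR) and became 0.07 (SE 0.10; adjusted p = 0.964 in edgeR) without MMS 2 and MMS 4. In the same 2 libraries some neuronal markers were also outside the control range, in both directions. Tubb3, a neuronal tubulin, was at 1280 and 1307 CPM where the controls had 3001 to 3461 CPM, and it was also below the controls in MMS 1 (2548 CPM) and MMS 3 (2069 CPM). Gad1, which makes GABA, was at 317 and 282 CPM where the controls had 129 to 220 CPM. The neuronal genes Map2 (1023 and 1197 CPM, controls 1286 to 1591 CPM) and Rbfox3 (151 and 150 CPM, controls 168 to 199 CPM) were below every control. Snap25 (407 and 464 CPM, controls 311 to 390 CPM) and Stmn2 (2027 and 2172 CPM, controls 1708 to 1933 CPM), also neuronal, were above every control. The summed level of 10 neuronal markers was 7182 and 7458 CPM against 8629 to 9723 CPM in controls, but without Tubb3 the other 9 summed to 5902 and 6151 CPM, inside the control range of 5565 to 6262 CPM. The 8 ependymal cilia markers summed to 14.8 and 28.9 CPM against 64.3 to 153 CPM. The part of tissue makeup or RNA quality in these values was not tested.

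The chromogranin genes did not share the low values of Scg2. Chgb, which encodes chromogranin B, was at 320 CPM in MMS 2 and 323 CPM in MMS 4, above every control (187 to 255 CPM), as did MMS 3 at 307 CPM. It averaged 214 ± 24.3 CPM in controls and 272 ± 50.4 CPM in MMS (SD, n = 6 each), a log2 change of 0.35 (SE 0.12; adjusted p = 0.543 in edgeR). For Chga, which encodes chromogranin A, the log2 fold change was 0.30 (SE 0.12; adjusted p = 0.543 in edgeR), with 4 of 6 MMS libraries above and 1 below all controls. Without MMS 2 and MMS 4 the log2 fold changes of Chgb and Chga were both 0.21, and neither then had an unadjusted p under 0.05. Scg3 and Scg5, which encode further granins, were inside the control ranges in MMS 2 and MMS 4, Scg3 at 255 and 266 CPM (the 2 lowest MMS values) and Scg5 at 384 and 370 CPM. The log2 ratio of Scg2 to Chgb was narrow in controls, from 2.15 to 2.39. In MMS it was 0.75 in MMS 2, 0.99 in MMS 4, 1.82 in MMS 3 and 1.87 in MMS 1, all below every control, and 2.24 and 2.55 in MMS 5 and MMS 6. The difference of -0.56 did not pass the threshold (two-sided exact permutation p = 0.0628, adjusted over 4 ratios 0.251). It was -0.14 without MMS 2 and MMS 4 (exact permutation p = 0.329) and -0.73 without MMS 6 (exact permutation p = 0.00649, adjusted 0.0260).

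**Figure D3:**
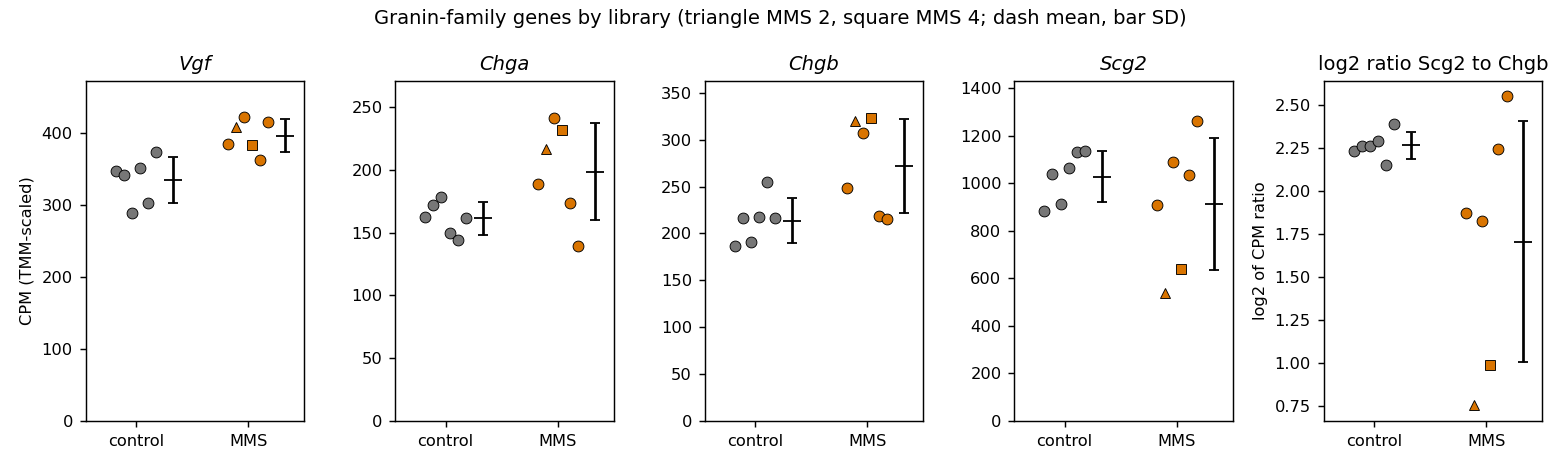
Level of the granin genes Vgf, Chga, Chgb and Scg2 by library (CPM after TMM scaling, axes from 0) and the log2 ratio of Scg2 to Chgb within each library (right), with MMS 2 as a triangle, MMS 4 as a square, and the mean and SD beside the points. The ratio is confined to 2.15 to 2.39 in controls and runs from 0.75 to 2.55 in MMS.

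The other genes of the pathways around these 10 were counted in 8 lists, whose choice was made with results of these data known. Of 104 genes tested, each counted once, 10 had an unadjusted p under 0.05 in edgeR (9.62%, near the 9.08% over all genes), and 0 passed the adjusted threshold. Without MMS 2 and MMS 4 there were 6. Of 40 tested genes of Trk receptor signalling, 20 were above and 20 below 0, with a median of 0.0044 and an unadjusted p under 0.05 for 1 in each direction. Shc1, which encodes an adaptor that docks on activated Trk receptors, was below all controls in 6 of 6 MMS libraries, at 2.48 to 7.02 CPM against 7.34 to 10.3 CPM. Groups without overlap were found for 0.389% of all genes tested. The log2 fold change of Shc1 was -0.93 (SE 0.26; adjusted p = 0.471 in edgeR), from 9 to 59 counts per library, and it was -0.83 without MMS 2 and MMS 4. Pik3ca, a catalytic subunit of the phosphoinositide kinase that Trk receptors engage, had 0.30 (SE 0.12; adjusted p = 0.543 in edgeR) and 0.14 without MMS 2 and MMS 4.

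No gene among the 13 tested partners of the Ngfr product and sortilin (median -0.01) or the 11 tested processing enzymes (median 0.05) had an unadjusted p under 0.05 in edgeR. Cpe, the most abundant of the enzymes, encodes carboxypeptidase E, which trims prohormones, and its log2 fold change was -0.19 (SE 0.12; adjusted p = 0.620 in edgeR). MMS 2 (1728 CPM, the lowest value) and MMS 4 (2165 CPM) were below every control (2399 to 3219 CPM). The Cpe log2 fold change was -0.05 without these libraries. Ngfrap1, whose product binds the Ngfr receptor, led the other list at 539 ± 43.6 CPM in controls and 574 ± 62.4 CPM in MMS (SD, n = 6 each). Among 9 tested granin and dense core vesicle genes outside the 10, 7 were above 0 (median 0.09), and only Chgb and Chga had an unadjusted p under 0.05. Of 15 tested pentraxins and synapse organisers 13 were above 0 (median 0.13), and 1 had such a p. It was Cbln2, a cerebellin that bridges synapses, with a log2 change of 0.35 (SE 0.14; adjusted p = 0.543 in edgeR) and 0.11 without MMS 2 and MMS 4. Of 7 other activity-linked secreted factors 2 were above 0 (median -0.05), and none had such a p. The most abundant of them was Sst, the somatostatin gene, at 225 ± 30.9 CPM in controls and 218 ± 26.7 CPM in MMS (SD, n = 6 each).

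Early genes, which neuronal firing induces quickly, had the list median furthest from 0. Of 9 tested, 8 were above 0, with a median log2 fold change of 0.56, and 5 had an unadjusted p under 0.05 in edgeR, namely Nr4a3, Nr4a1, Fos, Egr1 and Egr4, where the share over all genes was 9.08%. This list too was chosen with results of these data known, so its count is a description. Nr4a3, an orphan nuclear receptor, was at 5.07 ± 1.15 CPM in controls and 16.9 ± 8.29 CPM in MMS (SD, n = 6 each), with all 6 MMS libraries above every control and an adjusted p of 0.103 in edgeR. Its relative Nr4a1 did not overlap between the groups either (0.389% of all genes did not), with a log2 change of 1.03 (SE 0.22; adjusted p = 0.340 in edgeR). Fos was above every control in 4 of 6 MMS libraries (log2 fold change 1.24, SE 0.30) and Egr1 in 3 of 6 (0.56, SE 0.23). With MMS 2 and MMS 4 left out, the log2 fold change was lower for Fos (0.85), higher for Egr1 (0.83) and 1.03 for Nr4a1. Over all 12 libraries none of the 5 passed the adjusted threshold, and without MMS 2 and MMS 4 Nr4a3 did. Bdnf, which is also induced by activity, had a log2 fold change of -0.28 in the same libraries, and Nptx2 had -0.16. Whether the early genes and these factors differed in their response was not tested.

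**Figure D4:**
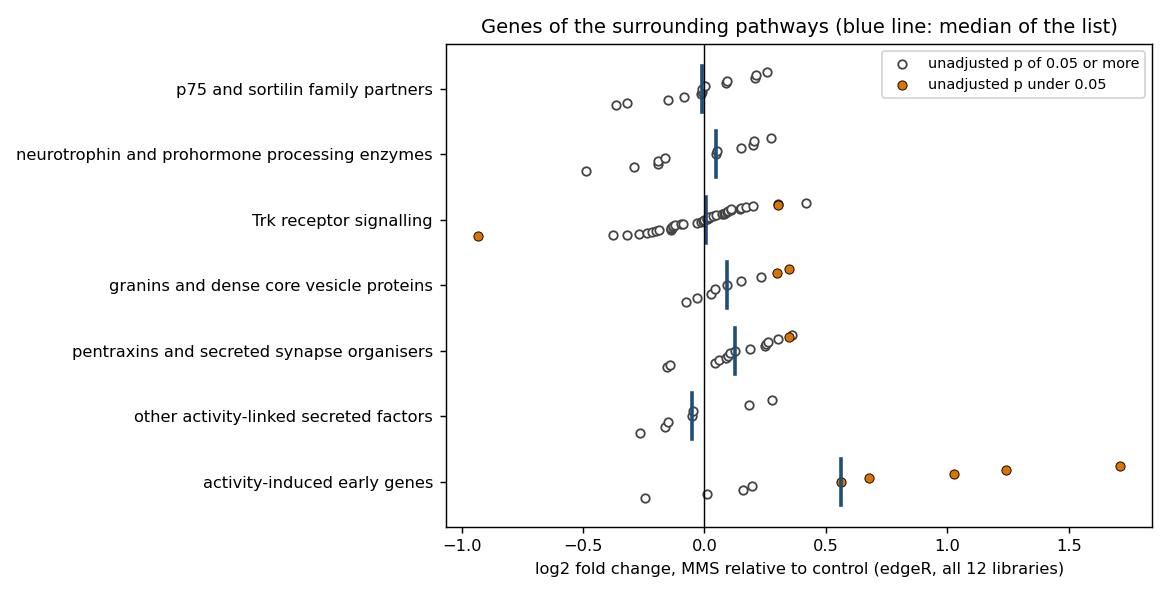
Log2 fold change between MMS and control (horizontal axis, edgeR, all 12 libraries) of each tested gene in 7 of the lists, the 8th having 0 tested genes, with filled points for an unadjusted p under 0.05 and a vertical line at the median of each list. The early genes lie furthest to the right (median 0.56), while the signalling and processing lists centre near 0.

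Over the 12 libraries the genes whose pattern was most like that of Bdnf were Syt9, Tanc1 and Arl2bp, among 11745 genes with a mean of at least 20 counts. Likeness was the root mean square difference of the log2 CPM between scaled genes (mean 0 and SD 1 over the libraries), and it was 0.33 for Syt9, 0.46 for Tanc1 and 0.48 for Arl2bp. Among the members the nearest to Bdnf were Scg2 (0.88) and Nptx2 (1.05), and the furthest was Ngfr (1.70).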

How the data were processed

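Hypothalamic RNA of 12 pups was sequenced from the 3' end on an Ion Proton instrument. The authors aligned the reads to mm10 in the Torrent Suite workflow and deposited raw counts per gene, 1 column per library, neither normalised nor pooled. How reads were assigned to genes, and whether strand was used, is not given in the sources. Libraries were grouped by their titles. Between libraries of a group the chi-square per degree of freedom was 4.51 to 7.9 in controls and 4.04 to 31.5 in MMS, so all 12 were kept as separate samples. The highest MMS values, from 17.6 to 31.5, came from pairs of MMS 2 or MMS 4 with a further MMS library. MMS 2 against MMS 4 gave 5.07. P-values measure the spread between these pups and do not account for litter.

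For the whole table, edgeR 4.0.16 (R 4.3.3) gave quasi-likelihood F tests (TMM scaling, robust dispersion, the default filter on counts, at 10 per library and 15 in total), two-sided, with Benjamini-Hochberg adjustment over 13104 genes and a threshold of 0.05. SE was the absolute log2 fold change divided by the square root of the F statistic. The test was also run on simulated data with known changes. DESeq2 1.42.0, limma 3.58.1 (voom) and sva 3.50.0 were alternatives. Log2 CPM used a prior count of 2. Members and lists were chosen with earlier results of these data known. Named genes were the 10 members, in each list up to 4 genes at an unadjusted p under 0.05 or otherwise the most abundant, and the 3 genes most like Bdnf. Tubb3, Map2, Rbfox3, Gad1, Snap25, Stmn2, Scg3, Scg5, Nptx1, Hcrt, Tcf7l2, Egr4, Gm9885 and Fars2 were added after their values were seen, as was the untested Ntf5. Some listed genes are not reported here. Coordinates are 1-based, from GENCODE M21 (GRCm38, the same build as mm10), and sequences are from RefSeq on GRCm38.p6.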

Additional observations from a re-analysis of the deposited data

Results flagged for a closer look

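Dixon's criterion, which chance meets in about 1 in 20 sets, was applied to the 6 values of each group for the 10 genes and 4 ratios. Of the 28 sets it picked out 1, fewer than the 1.4 that chance would give. In the MMS group the highest Ntrk2 value was 537 CPM (MMS 5), and the gap to the next library made up 0.646 of the range of that group.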

How the results depend on the processing

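None of the 10 genes passed the adjusted threshold under any of the 21 alternatives. Bdnf, Ntrk2, Ntrk3, Vgf and Nptx2 kept their sign in all of them. Without MMS 2 and MMS 4 the log2 fold change was -0.27 for Ngfr, -0.025 for Nrn1 and 0.069 for Scg2, and that of the Ngfr to Sort1 ratio was -0.14. With 1 surrogate variable it was -0.28 for Ngfr, -0.0058 for Nrn1 and 0.083 for Scg2, and with quality weights in limma-voom it was -0.049 for Ngfr. Leaving out 1 library, the log2 fold change ran from -0.27 to 0.18 for Ntf3 (0.10 without control 3, 0.10 without MMS 3, 0.18 without control 4, 0.17 without MMS 4, 0.04 without control 5, 0.09 without MMS 6) and from -0.10 to 0.01 for Sort1 (0.010 without MMS 5). Members at an unadjusted p under 0.05 numbered 1 to 2 (2 without control 6), and on leaving out 1 library the Scg2 to Chgb difference ran from -0.73 to -0.37. Ntf3 had no value with a mean of at least 20 counts. The causes were not tested.

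Over all genes, the number past the adjusted threshold was 7 in DESeq2, 1 without the count filter, 4 with 1 surrogate variable and 5 without MMS 2 and MMS 4, and it ran from 0 to 1 on leaving out 1 library. At an unadjusted p under 0.05 there were 2039 without the filter, 690 with the surrogate variable, 674 without MMS 2 and MMS 4, and 700 to 1804 on leaving out 1 library (700 without MMS 2, 707 without MMS 4, 1804 without MMS 5). Of the pathway genes 6 had such a p without MMS 2 and MMS 4. Deviations from the group mean correlated at -0.05 to 0.12 between same-numbered libraries of the 2 groups. Differently numbered libraries were not compared in this way, so whether the replicate numbers mark littermates is not known. With the replicate number as a block, 1 gene of the whole table was past the threshold and 0 members were. The Bdnf log2 fold change was -0.25 and that of Vgf 0.25 with this block. Of the 14 marker lists 0 differed between the groups at an adjusted p of 0.05 by the exact permutation test (1 had an unadjusted p under 0.05). Counting error alone gave a coefficient of variation of 37.1% for Ntf3 and 14.5% for Ngfr in controls.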
